A study of Mus musculus with 3 samples.

Results

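The 59 genes described here encode plasma membrane and lysosomal carriers of amino acids and related small molecules in 7 solute carrier families: Slc1, Slc3, Slc6, Slc7, Slc36, Slc38 and Slc43. They were taken by symbol (family number, the letter a and a member number, with at least 1 transcript annotated as protein coding), with Slc7a2 and Slc7a11 left out, among 55536 annotated genes, 22028 of them protein coding. No expression value entered the choice. Slc6a20a and Slc6a20b, whose symbols end in a letter, are therefore not among the 59 and averaged 0.04 and 4.13 TPM. A few family members carry other cargo, such as creatine, monoamines or purines. RNA bound to chromatin, which is rich in transcripts still being made, was depleted of ribosomal RNA and sequenced in primary macrophages grown from bone marrow of C57BL/6J mice. All cells received 100 ng/ml Lipid A for 12 h, then 12 h without it, then the same dose for 15 min. Lipid A is the lipopolysaccharide anchor that is sensed by TLR4. This single group has 3 libraries, numbered as biological replicates 1, 2 and 3, with no untreated or singly treated group, so no value below is a response to Lipid A. Age and sex of the mice are not stated, and the labels give 1 donor identifier for all libraries, and so their spread may in part be technical.

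Amino acid carriers work as exchangers, as sodium-coupled or proton-coupled pumps, or as facilitators. The Slc7 light chains reach the cell surface only when bound to an Slc3 heavy chain, and carriers in the lysosome membrane return amino acids to the cytosol and report their supply to the kinase mTORC1. Activated macrophages draw on glutamine, arginine and large neutral amino acids for energy, nitric oxide and protein synthesis.

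Levels are in TPM, a unit that corrects for transcript length and sequencing depth, from the authors' gene table made from alignments. A second table, estimated directly from the reads, is named where it is used. Expected counts totalled 14609979, 17423948 and 24162551 in replicates 1, 2 and 3, and the members held 0.260, 0.229 and 0.237% of them. The libraries began from 1 µg, 250 ng and 500 ng of RNA. All 10 macrophage markers were at or above 1 TPM, led by Adgre1, Lyz2 and Csf1r at 330, 163 and 128 TPM. The macrophage markers summed to between 948 and 1021 TPM in a library. None of the 9 neutrophil markers (1.06 to 1.67 TPM in sum), 8 lymphocyte markers (0.36 to 0.51), 6 mast cell and basophil markers (0 to 0.11), 8 neuronal markers (0) or 6 epithelial markers (0 to 0.02) reached 1 TPM. Of 7 stromal and endothelial markers only Pecam1 did, at 1.31 TPM (1.87 to 3.59 in sum), and of 6 erythroid markers only Alas2, at 10.4 TPM (8.44 to 11.9 in sum). These absences depend on the table, since by the read-based estimates 3 neutrophil, 3 lymphocyte, 2 stromal and endothelial and 1 epithelial marker reached 1 TPM, with Cd3d highest of those under 1 TPM in the gene table, at 15.2 TPM.

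The RNA of the carrier genes was concentrated in a few members. Slc6a6 alone, the taurine carrier, held 34.5% of the members' summed TPM, the highest 5 held 77.8% and the highest 15 held 97.3%. The 5 were Slc6a6, Slc38a6, Slc43a2, Slc3a2 and Slc38a9. A mean of at least 1 TPM was reached by 21 of 59 members, against 48.4% of all protein-coding genes and 52.6% of the 308 other genes named Slc. At 10 TPM the numbers were 15 members and 26.4% of protein-coding genes. A mean expected count of at least 10, called detected below, was reached by 24 members, against 53.4% of protein-coding genes. The median member stood at 0.11 ± 0.09 on the log2(TPM + 1) scale (SD over 3 libraries), whereas the median protein-coding gene was at 0.78 in each library. By the read-based estimates 30 members passed 1 TPM, against 59.8% of protein-coding genes. These are shares of genes, with no test, since the members were compared with other genes inside 1 group of libraries. In a mixed population fewer cells that use a gene and less RNA per cell cannot be told apart.

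**Figure D1:**
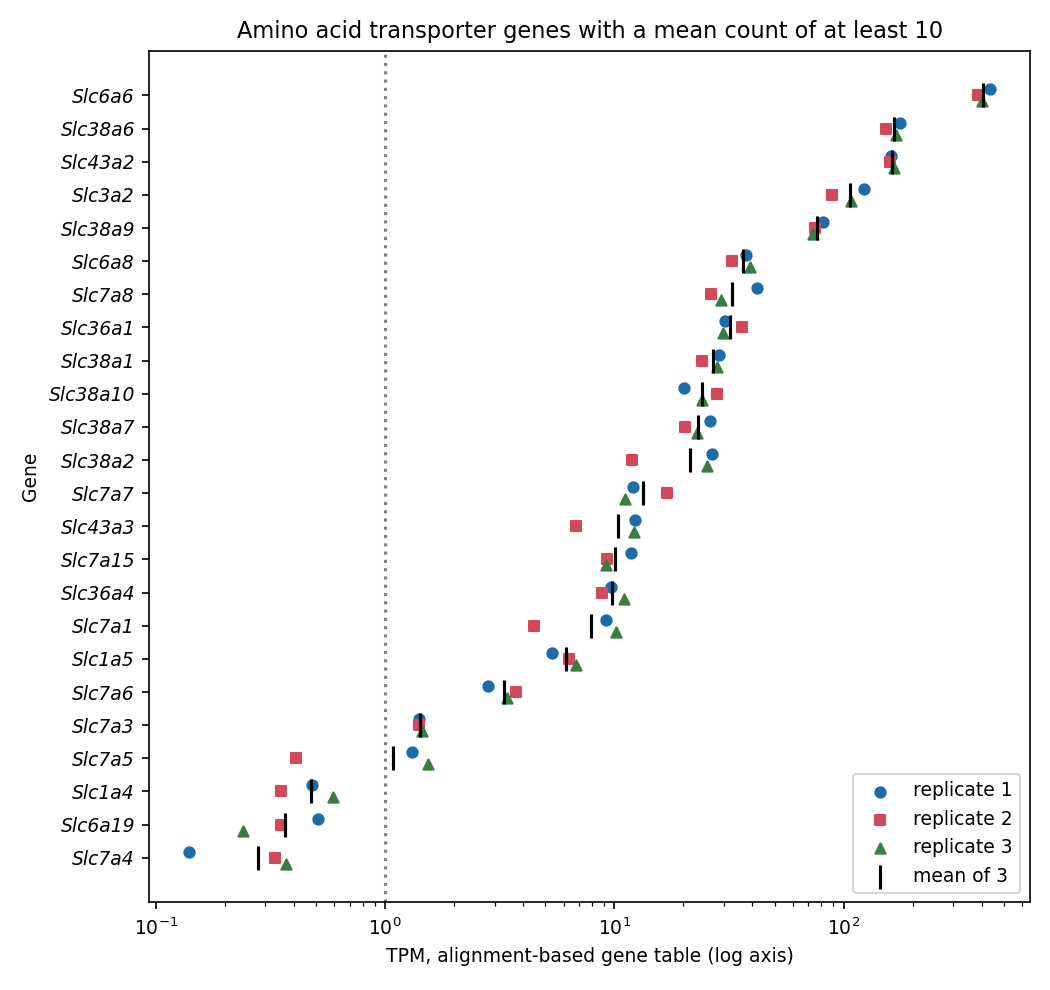
TPM of the 24 detected carrier genes in each library (points) and their mean (black bar) on a log axis, with a dotted line at 1 TPM. Slc6a6 stands highest at 408 TPM, 15 genes lie above 10 TPM, and replicate 2 (squares) is the left-most point for 14 of the 24.

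The families differed widely. Of the Slc38 family of sodium-coupled neutral amino acid carriers, 6 of 11 members had at least 1 TPM, and each of these 6 had more than 10 TPM. In the Slc7 family it was 7 of the 13 taken, in Slc36 2 of 4 and in Slc43 2 of 3. In Slc3 it was 1 of 2, in Slc6 2 of the 19 taken and in Slc1 1 of 7. The family medians on the log2(TPM + 1) scale were 4.22 ± 0.47 for Slc38, 3.50 ± 0.10 for Slc3, 3.47 ± 0.44 for Slc43, 1.87 ± 0.10 for Slc36, 1.00 ± 0.44 for Slc7, 0.11 ± 0.08 for Slc1 and 0 for Slc6 (SD over 3 libraries). Slc38, Slc3 and Slc43 do not separate in this order beyond their spread. By summed TPM in the gene table, however, the Slc6 family came first with 37.7% of the total, through Slc6a6. Slc38 followed with 28.6%, Slc43 with 14.6% and Slc3 with 9.05%. The gap between Slc6 and Slc38 depends on the table and was smaller by the read-based estimates. There Slc38a6 had 349 TPM, against 166 TPM in the gene table, and Slc6a6 514 against 408 TPM.

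Slc6a6, on the plus strand of chromosome 6 from 91684053 to 91759066 (mm10), encodes the sodium- and chloride-coupled carrier of taurine, an amino sulfonic acid that immune cells store in high amounts. Its level was 434, 387 and 402 TPM in replicates 1, 2 and 3, a mean of 408 ± 24 TPM, which ranked 54 among the protein-coding genes. The read-based table gave 562, 479 and 503 TPM. All libraries were thus within 1.12-fold of each other in the gene table, where no other member came near this level. The lead was smaller by the read-based estimates, with 514 TPM for Slc6a6, 381 TPM for Slc43a2 and 349 TPM for Slc38a6. In mean expected counts Slc6a6 had 12396 and Slc43a2 9916. Slc6a8, the creatine carrier on chromosome X, had 37.7, 32.6 and 38.9 TPM, a mean of 36.4 ± 3.35 TPM. Both carry molecules that are not built into protein.

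The heavy chain Slc3a2, known as 4F2hc or CD98, escorts the LAT and y+LAT light chains to the surface. It lies on the minus strand of chromosome 19 from 8706882 to 8723369 and had 123, 89.0 and 108 TPM in replicates 1, 2 and 3, a mean of 107 ± 17.2 TPM. Replicate 2 was the lowest and replicate 1 the highest. The light chains were all lower. Slc7a8, which encodes LAT2, a sodium-independent exchanger of neutral amino acids, led with 41.8, 26.5 and 29.3 TPM. Slc7a7, the y+LAT1 chain that exports cationic amino acids and is mutated in human lysinuric protein intolerance, had 12.1, 16.9 and 11.1 TPM. Slc7a15, a mouse chain described as preferring aromatic amino acids, had 11.9, 9.27 and 9.16 TPM. These 3 chains averaged 32.5 ± 8.14, 13.3 ± 3.11 and 10.1 ± 1.53 TPM (SD, n = 3 each), so the last pair overlap within their spread. Slc7a6, the y+LAT2 chain, averaged 3.31 ± 0.47 TPM. Slc7a5, the LAT1 chain that supplies leucine to proliferating cells, had only 1.31, 0.41 and 1.54 TPM, from 46, 21 and 72 expected counts. The other heavy chain, Slc3a1 (rBAT), the partner of the renal cystine exchanger, averaged 0.20 ± 0.05 TPM, and its partner Slc7a9 had 0 TPM in each library. The 9 light chains taken, 5 of them at or above 1 TPM, together summed to 69.8, 56.8 and 54.5 TPM. This was below the 1 heavy chain Slc3a2 in each library, but Slc7a11 is not in the sum.

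A promoter window is shown for Slc7a7 because it was the only carrier gene at or above 1 TPM whose window held TGATGCAA. This is a core form of the amino acid response element, through which amino acid shortage acts on some genes. Other forms of the element were not searched. The window covers the 250 bases before an annotated start in the RefSeq promoter table (GRCm38.p6), chr14:54417703-54417952 on the minus strand, 5′ to 3′, with the motif in capitals.
Slc7a7: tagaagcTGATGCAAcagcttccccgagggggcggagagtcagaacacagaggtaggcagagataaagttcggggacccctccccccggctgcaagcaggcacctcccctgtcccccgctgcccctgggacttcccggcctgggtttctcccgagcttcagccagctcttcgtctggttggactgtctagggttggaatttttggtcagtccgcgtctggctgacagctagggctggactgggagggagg
The motif begins 243 bases before this start, and the same site spans the start of another Slc7a7 window. Searched on both strands in windows from 250 bases before to 50 bases after a start, TGATGCAA was held by 2 of the 42 members with a window (Slc7a7 and Slc1a4), or 4.76%, against 1.03% of the 27025 genes with a window. The other 17 members have no window in the table, among them Slc6a6 and Slc7a5. A match describes the letters in a window and is not evidence that a factor binds there.

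Among facilitators of large neutral amino acids, Slc43a2 (LAT4), which needs no heavy chain, was as high as any member after Slc6a6. It lies on the plus strand of chromosome 11 from 75531694 to 75577575 and had 161, 159 and 166 TPM, a mean of 162 ± 3.57 TPM. This was the narrowest spread of the highest 5 members, and the mean lay within the spread of Slc38a6 (166 ± 12.3 TPM). Slc43a3, a carrier of purine nucleobases rather than amino acids, had 12.3, 6.77 and 12.2 TPM, with replicate 2 apart from the other 2 libraries. The third member of the family, Slc43a1 (LAT3), averaged 0.01 TPM.

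The Slc38 family split into genes well above 10 TPM and genes at 0. Slc38a6, which encodes SNAT6, a carrier whose cargo is not settled, had 176, 152 and 169 TPM from the plus strand of chromosome 12. Slc38a9, the lysosomal arginine sensor that signals to mTORC1, had 80.9, 75.1 and 73.7 TPM, a mean of 76.6 ± 3.85 TPM. Both were high in all libraries. Slc38a1 (SNAT1), a sodium-coupled importer of glutamine, averaged 26.9 ± 2.48 TPM, and Slc38a10, which is broadly expressed with an uncertain role, averaged 24 ± 3.96 TPM. Slc38a7 (SNAT7), the lysosomal exporter of glutamine, had 26.2, 20.2 and 22.8 TPM. Slc38a2 (SNAT2), the system A carrier that cells induce when amino acids run short, had 26.5, 11.9 and 25.3 TPM. Its value in replicate 2 lay 2.23-fold below that in replicate 1. From Slc38a1 down to Slc38a2, the 4 ranges of mean ± SD overlapped. The remaining 5 members, Slc38a3, Slc38a4, Slc38a5, Slc38a8 and Slc38a11, had 0 TPM in each library.

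The proton-coupled Slc36 family was carried by Slc36a1 (PAT1), which exports small amino acids from lysosomes and takes part in mTORC1 activation. Its levels were 30.5, 35.9 and 29.7 TPM, a mean of 32.0 ± 3.41 TPM, and replicate 2 was the highest. Slc36a4 (PAT4) averaged 9.80 ± 1.09 TPM, whereas Slc36a3 and Slc36a2 averaged 0.25 and 0.02 TPM. The promoter windows of Slc36a1 and Slc38a7 are shown because these lysosomal exporters were the only members at or above 1 TPM with CACGTG, the E-box core that is read by Myc and by the lysosomal regulators of the TFEB family. Both sequences are the 250 bases before the RefSeq start (GRCm38.p6), 5′ to 3′ with the motif in capitals, from chr11:55204090-55204339 on the plus strand and chr8:95853492-95853741 on the minus strand.
Slc36a1: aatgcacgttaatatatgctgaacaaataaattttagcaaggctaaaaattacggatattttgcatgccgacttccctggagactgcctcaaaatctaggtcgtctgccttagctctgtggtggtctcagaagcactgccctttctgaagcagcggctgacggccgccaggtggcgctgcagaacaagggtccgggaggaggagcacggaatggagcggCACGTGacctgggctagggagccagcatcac
Slc38a7: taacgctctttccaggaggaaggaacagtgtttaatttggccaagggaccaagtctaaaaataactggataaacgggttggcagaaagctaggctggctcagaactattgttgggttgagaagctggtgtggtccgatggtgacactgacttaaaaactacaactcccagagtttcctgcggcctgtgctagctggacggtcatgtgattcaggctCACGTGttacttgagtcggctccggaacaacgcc
The motif begins 31 bases before the start in Slc36a1 and 34 bases before it in Slc38a7, and in Slc36a1 a second copy begins 3 bases before the start and runs across it. The E-box was held by 9 of 42 members (21.4%), against 8.09% of genes, and 7 of the 9 were under 1 TPM. The interferon-stimulated element was searched in 2 core forms, GGAA or GAAA followed after any 2 bases by GAAA. The form with GGAA was held by 3 of 42 members (7.14%), Slc7a1, Slc7a7 and Slc1a2, against 3.16% of genes, and the form with GAAA by 0 of 42, against 3.99% of genes.

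The cationic carriers of the CAT type taken here, which do not include Slc7a2, and the Slc1 family were under 10 TPM. Slc7a1 (CAT1), the general importer of arginine and lysine, had 9.19, 4.44 and 10.1 TPM, a mean of 7.92 ± 3.05 TPM. Slc7a3 (CAT3) averaged 1.42 ± 0.03 TPM, Slc7a4 0.28 ± 0.12 TPM, and Slc7a14, a lysosomal relative, 0.05 ± 0.01 TPM. Slc1a5 (ASCT2), an exchanger that brings in glutamine, was the highest of its family with 5.33, 6.36 and 6.80 TPM, a mean of 6.16 ± 0.75 TPM. Slc1a4 (ASCT1) averaged 0.47 ± 0.12 TPM. The 5 glutamate carriers of the Slc1 family averaged under 0.1 TPM each. None of the 9 members that carry GABA, monoamines, glycine or betaine reached 1 TPM, and together they held 0.07% of the members' TPM. In all 19 members had 0 TPM in each library, where a count of 0 allows a share of at most 2.05e-05% of the counts of the shallowest library (3 counts, covering counting error only). Those under 0.1 TPM in both tables were Slc1a6, Slc38a3, Slc38a4, Slc6a3, Slc6a4, Slc6a7, Slc6a11, Slc6a13, Slc6a14, Slc6a16, Slc6a21, Slc7a9, Slc7a10 and Slc7a12.

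Much of this RNA was assigned to transcripts that do not encode the carrier, and how much depends on the unit. GENCODE annotates some transcripts of a coding gene as retained intron, meaning that they keep sequence which is spliced out elsewhere. For the 21 members of at least 1 TPM, the median share of a gene's TPM in protein-coding transcripts was 54.8 ± 3.85% (SD over 3 libraries), against 56.8 ± 1.5% for the 10639 protein-coding genes of at least 1 TPM. More than 50% of the TPM was in retained intron transcripts in 7 of the 21 members, against 27.5% of those genes. Slc1a5 was the extreme, with 6.77 ± 7.09% in its coding transcript and 93.2% in retained intron transcripts. Next came Slc38a9 with 16.5 ± 0.89%, Slc7a1 with 26.7 ± 3.66%, Slc6a8 with 27.9 ± 6.42% and Slc6a6 with 29.8 ± 2.18% in coding transcripts. At the other end were Slc7a7 with 100% and Slc36a4 with 96.9 ± 3.25%, and Slc3a2 had 81.7 ± 0.39%. The place of Slc7a7 depends on the table, since its read-based coding share was only 26.4 ± 1.64%. Those of Slc36a4 and Slc3a2 were 98.6 ± 1.62 and 92.6 ± 2.07%.

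Counted in reads rather than in TPM, the picture shifted. TPM divides by length, so a short transcript weighs more in it than in the counts. Of the expected counts the median member had 73.5 ± 3.38% in protein-coding transcripts, against 79.8 ± 1.15% for all protein-coding genes of at least 1 TPM, and only 2 members (Slc1a5 and Slc38a2) had more than 50% in retained intron transcripts, against 18.3% of those genes. The coding share of Slc6a6 was 79.7 ± 1.41% of its counts. Its coding transcript Slc6a6-201, of 6186 nt, had 119, 88.7 and 104 TPM, whereas the retained intron transcripts Slc6a6-211 and Slc6a6-208, of 682 and 481 nt, averaged 65.0 ± 5.54 and 63.2 ± 3.04 TPM. Slc1a5 kept its low share in counts as well, with 9.17 ± 10.1% in the coding transcript. That value rested on 0, 35.5 and 20.9 expected counts in Slc1a5-201, while its retained intron transcript Slc1a5-202, of nearly the same length, had 115, 125 and 241. Slc38a2 was divided almost evenly in TPM, with 50.4 ± 1.72% coding, and had 43.3 ± 1.65% of its counts in the coding transcript.

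**Figure D2:**
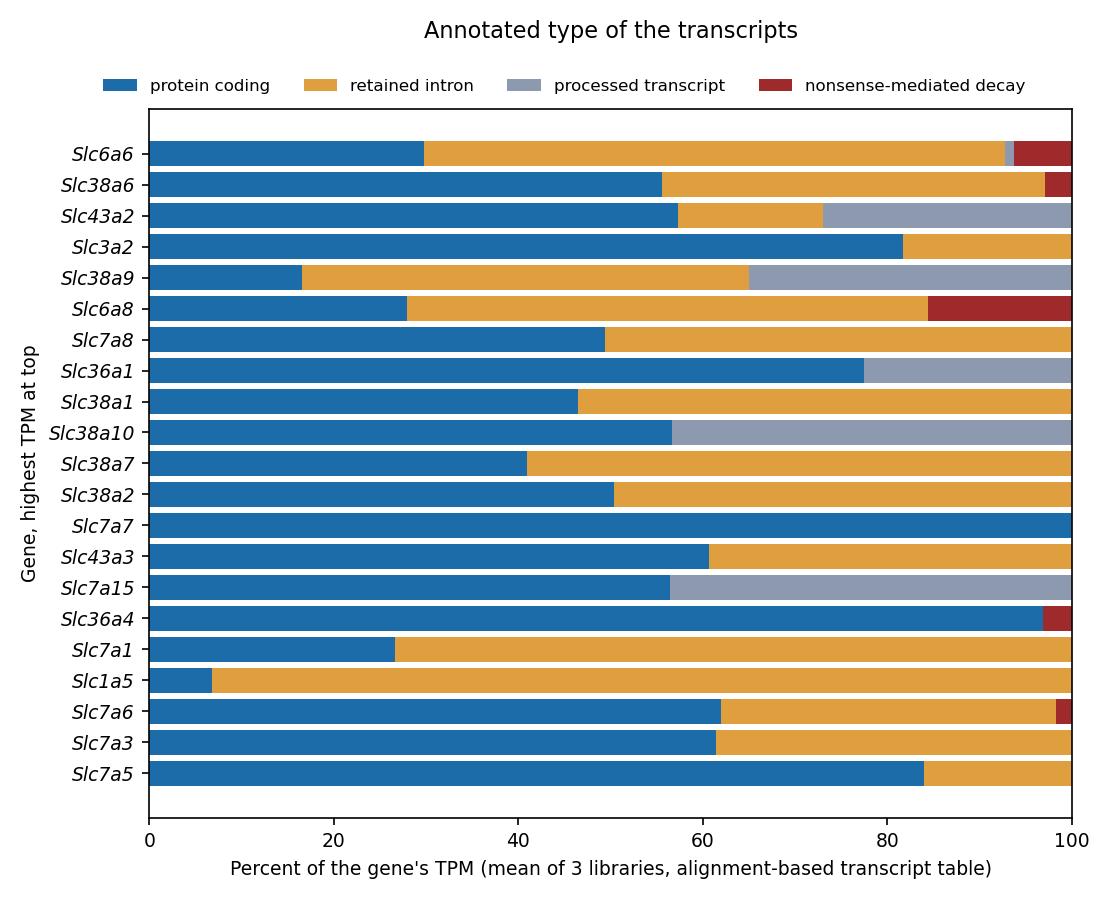
Share of each gene's TPM by the annotated type of transcript, mean of 3 libraries, for the 21 carrier genes of at least 1 TPM with the highest gene at the top. Coding transcripts (blue) range from 6.77% in Slc1a5 to 100% in Slc7a7 in the alignment-based transcript table drawn here. By the read-based estimates Slc7a7 had 26.4%.

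The choice of table changed several members by more than their spread. Of the 21 members of at least 1 TPM, 17 were higher in the read-based table. The share over all protein-coding genes was not counted. More of those genes also reached 1 TPM in the read-based table, 59.8% against 48.4%. Slc43a2 averaged 381 ± 23.7 TPM there, against 162 ± 3.57 TPM in the gene table. For Slc3a2 it was 267 ± 21.7 against 107 ± 17.2 TPM, for Slc38a6 349 ± 28.6 against 166 ± 12.3 TPM and for Slc7a7 62.1 ± 8.02 against 13.3 ± 3.11 TPM. The last is a 4.65-fold difference. In the read-based table Slc7a7 therefore stood above Slc7a8 (29.2 ± 6.87 TPM). The mean of Slc43a2 stood above that of Slc38a6 there, but their ranges of mean ± SD overlapped.

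A few short transcripts accounted for much of these differences. The 21 members have 153 annotated transcripts, and 37 of them had 0 TPM in each library of the alignment-based transcript table. Of these 37, 11 reached 1 TPM by the read-based estimates, with a median length of 492 nt, against 1549.5 nt for the transcripts not at 0. Slc7a7-207, a processed transcript of 492 nt, had 29.4 TPM in the read-based table, and transcripts at 0 in the alignment-based table held 79.5% of the read-based TPM of Slc7a7. Without them Slc7a7 had 12.7 TPM, close to its level in the gene table. The corresponding share was 58.2% in Slc3a2, mostly in Slc3a2-203 (378 nt, 108 TPM), and 32.0% in Slc43a2, in Slc43a2-209 (372 nt, 122 TPM). Slc38a6 had no transcript at 0, and its difference lay mainly in Slc38a6-208, with 127 ± 18.5 TPM in the read-based table and 26.6 ± 3.93 TPM in the alignment-based one. Slc7a5 had 10.3, 0.87 and 6.16 TPM in the read-based table, of which Slc7a5-203, of 174 nt, made up 8.53, 0 and 4.40 TPM from only 6.88, 0 and 5.8 estimated counts. Its coding transcript Slc7a5-201 stood at 0.85 ± 0.38 and 0.90 ± 0.37 TPM in the alignment-based and read-based tables.

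Of the 30 members under 0.1 TPM in the gene table, 6 reached 1 TPM in the second table, against 17.2% of the 8883 such protein-coding genes. They were Slc1a3, Slc7a13, Slc38a11, Slc38a8, Slc6a17 and Slc7a14, named here after their values were seen. Slc1a3, the glutamate carrier GLAST of glia, had 5.12, 6.86 and 5.81 TPM there, against 0, 0.02 and 0.07 TPM in the gene table, and Slc7a13, a kidney light chain, had 4.55 ± 0.18 TPM, against 0. Whether these 6 members pass 1 TPM therefore depends on the table.

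**Figure D3:**
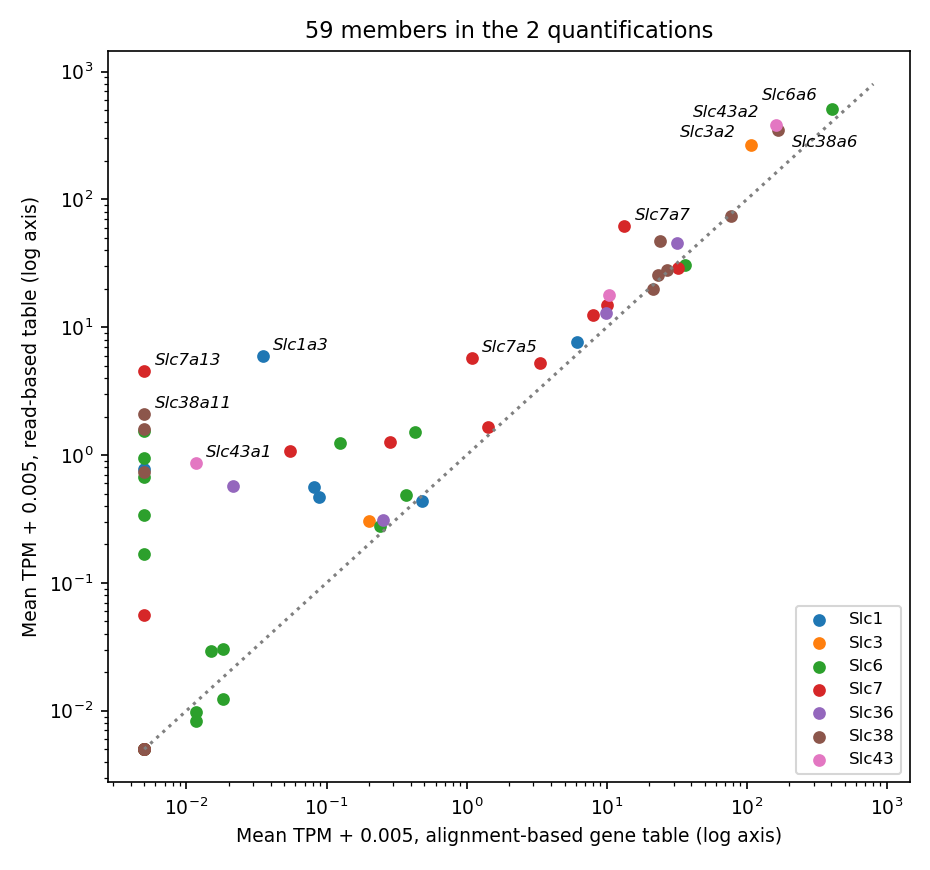
Mean TPM of the 59 carrier genes in the read-based table (vertical) against the alignment-based gene table (horizontal), both log axes after adding 0.005, coloured by family, with a dotted line of equal values. Most genes lie on or above the line, with Slc7a7 at 62.1 against 13.3 TPM and Slc7a13 and Slc1a3 far above it.

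The authors' gene table also lists a lower and an upper bound for each TPM. Slc6a6, Slc38a6, Slc43a2, Slc38a9, Slc7a8 and Slc38a2 lay above their own upper bound in all 3 libraries, which makes 6 of 21 members, against 8.79% of protein-coding genes of at least 1 TPM. For Slc6a6 in replicate 1 the listed TPM was 434 and the interval ran from 384 to 416. None of the 21 lay below the lower bound in all libraries, against 1.17% of those genes. Some members under 1 TPM did, such as Slc1a2, with 0.08, 0.01 and 0.14 TPM against lower bounds of 2.55, 2.76 and 2.23 TPM. For Slc7a5 the interval in replicate 1 ran from 1.02 to 14.8 TPM, wide enough to hold its values in both tables.

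On the log2(TPM + 1) scale the libraries differed most in Slc38a2, Slc7a1, Slc7a5 and Slc43a3, each lowest in replicate 2. Of the 24 detected members, 14 were lowest in replicate 2, against 39.4% of the detected protein-coding genes, 5 were lowest in replicate 1 (37.4%) and 5 in replicate 3 (23.2%). Highest were 11 in replicate 1 (36.8%), 4 in replicate 2 (29.5%) and 9 in replicate 3 (33.7%). One tie, Slc7a3 with 1.40 TPM in replicates 1 and 2, was counted for replicate 1. The deviation of a library, its log2(TPM + 1) minus the mean of the other 2, had a median over the members of 0.13, -0.17 and 0.05 in replicates 1, 2 and 3, whereas over all detected protein-coding genes the medians of replicates 2 and 3 were -0.03 and 0.03. The count lowest in replicate 2 was 13, 13, 15 and 11 with TMM factors, DESeq2 size factors, rescaled TPM and the read-based table, while 33.6, 33.6, 39.0 and 35.6% of protein-coding genes were lowest there.

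In replicate 2 Slc38a2, Slc7a1, Slc7a5 and Slc43a3 deviated by -1.06, -0.97, -0.78 and -0.77, and in replicates 1 and 3 each was higher by 0.29 to 0.58. The read-based deviations in replicate 2 were -0.90, -0.62, -2.26 and -0.52. Slc7a8 and Slc3a2 followed with -0.39 and -0.37, but the sign for Slc3a2 turned in the read-based table, where replicate 2 deviated by 0.20. Slc7a7 and Slc38a10 deviated the other way, by 0.51 and 0.34 in replicate 2, although the deviation of Slc7a7 was only 0.05 with TMM factors. Of the 24, 5 (Slc38a2, Slc7a1, Slc7a5, Slc6a19 and Slc7a4) were more than 2-fold apart between their highest and lowest library, against 9.61% of detected protein-coding genes, and the last 2 of these were under 0.5 TPM. The biological coefficient of variation estimated by edgeR, the relative spread beyond counting error, was 0.150 for the median member and 0.146 for the median protein-coding gene. It was 0.319 for Slc7a5, 0.251 for Slc38a2, 0.25 for Slc7a1, 0.247 for Slc7a4, 0.214 for Slc1a4, 0.212 for Slc6a19 and 0.209 for Slc43a3. Slc7a4, Slc1a4 and Slc6a19, each under 0.5 TPM, lay below the trend for genes of their abundance (0.256, 0.233 and 0.252), and the other 4 above it (0.217 for Slc7a5, 0.140 for Slc38a2, 0.146 for Slc7a1 and 0.148 for Slc43a3).

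**Figure D4:**
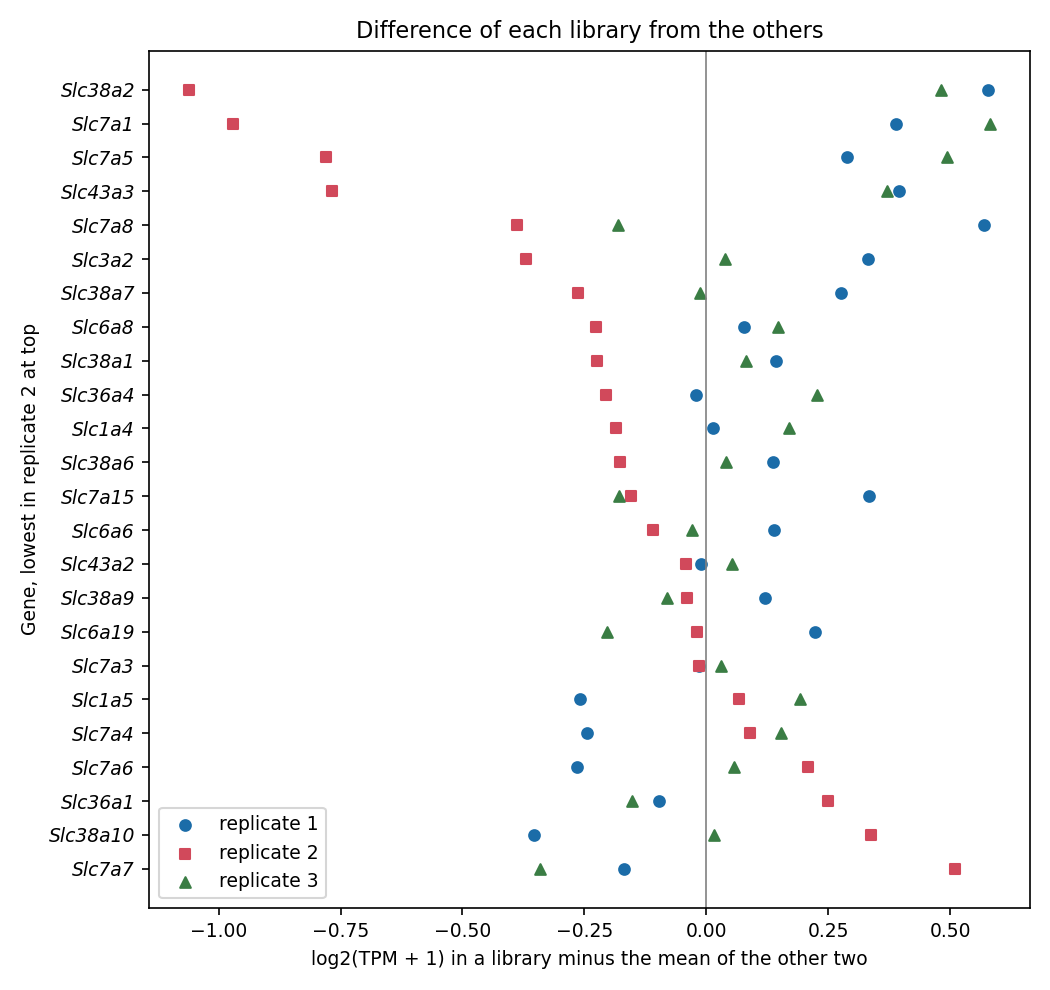
Deviation of each library, log2(TPM + 1) minus the mean of the other 2 libraries, for the 24 detected carrier genes, ordered by replicate 2 (squares). Slc38a2, Slc7a1, Slc7a5 and Slc43a3 have replicate 2 between -1.06 and -0.77, and Slc7a7 at the bottom has it at 0.51.

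Genes of the response to amino acid shortage were also mostly lowest in replicate 2. In that response the kinase Gcn2 (Eif2ak4) and the factor Atf4 induce genes of amino acid synthesis and uptake, Slc38a2, Slc7a1, Slc7a5 and Slc3a2 among those known as Atf4 targets. Of the 20 listed genes found, 19 had at least 1 TPM and were detected. Of these 19, 17 were lowest in replicate 2, against 39.4% of detected protein-coding genes. The 19 had a median deviation of -0.70 in replicate 2. The count lowest there was 15 of 19 with TMM factors, DESeq2 size factors and the read-based table. Eif2ak4 itself was the only 1 of the 19 highest in replicate 2, with 24.6, 32.8 and 30.3 TPM in replicates 1, 2 and 3. Ddit3, the stress factor CHOP, had 95.1, 54.8 and 82.0 TPM in replicates 1, 2 and 3. Cebpg, a partner of Atf4, had 72.6, 42.6 and 69.0 TPM, and Atf4 itself 48.9, 41.9 and 52.0 TPM. Lowest in level was Vldlr at 0.02 TPM. Genes of mTORC1 and its amino acid sensors did not share this pattern. Of 35 detected genes 12 were lowest in replicate 2, near the 39.4% of detected protein-coding genes. Of the 36 sensing genes found, 34 had at least 1 TPM, led by Fnip2 at 311 ± 73.1, Flcn at 73.3 ± 13.8 and Fnip1 at 66.4 ± 6.15 TPM, the folliculin complex that acts beside Slc38a9 at the lysosome, while the cytosolic arginine sensor Castor1 was lowest at 0.23 TPM.

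Replicate 2 began from the least RNA, and other gene groups also differed between the libraries. All 16 interferon-stimulated genes were highest in replicate 1, against 36.8% of detected protein-coding genes, and their median deviation there was 0.61. Of the 16, 11 were lowest in replicate 2, against 39.4% of detected protein-coding genes. Of the 10 macrophage markers 3 were lowest in replicate 2. The interferon-stimulated genes were led by Mx1 at 2956, 1818 and 1670 TPM, Stat2 at 825, 645 and 625 TPM and Rsad2 at 988, 470 and 557 TPM, with Isg15 lowest at 78.0, 45.8 and 57.7 TPM. All 4 detected stromal and endothelial markers were highest in replicate 2, at levels up to 1.53 TPM, against 29.5% of detected protein-coding genes highest there. The part of RNA input, the response to amino acid shortage, interferon response or stromal cells in the spread of the carriers was not tested.

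Further carriers and the enzymes that use their cargo were also measured. Of 14 further amino acid and peptide carriers, which include Slc6a20a and Slc6a20b, 7 had at least 1 TPM. Highest were Mfsd12, a lysosomal cysteine importer, at 93.7 ± 9.47 TPM and the lysosomal histidine and peptide carriers Slc15a3 and Slc15a4 at 92.4 ± 28.3 and 86.1 ± 19.9 TPM, and the vesicular GABA carrier Slc32a1 was at 0. Of 18 enzymes of glutamine, glutamate, glutathione, branched-chain and tryptophan metabolism, 13 had at least 1 TPM. Glud1, glutamate dehydrogenase, had 41.0 ± 3.53 TPM and Bcat2, the mitochondrial branched-chain aminotransferase, 21.7 ± 4.30 TPM, whereas its cytosolic relative Bcat1 was lowest at 0.01 TPM.

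Position and overlap bear on how the levels can be read. Of the 59 members 16 lie in 9 neighbouring pairs within 200 kb of each other. Slc38a1 and Slc38a2, 44.5 kb apart on chromosome 15 and on the same strand, were the only pair with both members at or above 1 TPM (26.9 ± 2.48 and 21.3 ± 8.12 TPM). In 2 pairs 1 gene was at or above 1 TPM. Slc36a1 had 32.0 TPM and its neighbour Slc36a2, 19.3 kb away on chromosome 11 and on the opposite strand, 0.02 TPM, and Slc43a3 had 10.4 TPM and Slc43a1, 73.0 kb away on chromosome 2, 0.01 TPM. In the other 6 pairs neither gene reached 1 TPM. Overlap with an annotated gene on the opposite strand was found for 7 of the 21 members of at least 1 TPM. In each of the 7 at least 1 such gene had a mean count of 10 or more. The share over all protein-coding genes was not counted, so whether 7 of 21 is usual is not known. The sources used here do not state whether counting was stranded. If it was not, reads from bases shared with an opposite-strand gene cannot be told apart. Within Slc6a6 the opposite-strand genes Gm44981 and 4930517G19Rik had 62.7 ± 5.52 and 40.5 ± 8.99 TPM and the same-strand gene Gm45828 had 50.4 ± 5.40 TPM. Gm45606 had 42.5 ± 3.62 TPM within Slc43a2. Slc7a7 shares 232 bases with Oxa1l, which had 31.4 ± 5.19 TPM. Slc7a5 lies wholly within Gm20388 on the other strand, which had 0, 2.72 and 1.10 TPM in replicates 1, 2 and 3, so it was highest where Slc7a5 was lowest.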

How the data were processed

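The authors estimated the deposited expected counts and TPM from alignments to GENCODE M21 transcripts (mm10), per the file headers and the deposited README files, in a gene and a transcript table. Bounds of an interval for TPM stand in the gene table, with no level stated in the authors' header. In a second transcript table the authors estimated counts and TPM directly from the reads, per the same files, and these were summed here per gene. Tools and their versions are not given in the sources used here. Rows of no annotated gene held 1.24, 0.482 and 0.228% of expected counts in replicates 1, 2 and 3 and were left out.

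The log2(TPM + 1) scale compresses differences between low genes. Detected means a mean expected count of at least 10. Rescaled TPM leaves out features under 200 nt and 3 genes of the ribosomal locus and multiplied TPM by 1.96, 1.87 and 1.82. Expected counts were rounded for edgeR 4.0.16 (TMM factors, and dispersions from a model that has just an intercept) and for the size factors of DESeq2 1.42.0, run in R 4.3.3. Everything else ran in Python 3.11.15 with numpy 2.4.6, pandas 2.3.3 and matplotlib 3.10.9. The deviation was tested on simulated data that held counting error only, so that test does not cover spread beyond counting error. With 1 group there was no test between conditions and no p-value. Replicates are the labels' biological replicates, but spread may be technical. No pair of libraries was a duplicate, with at most 26 of 9955 genes of at least 100 counts at equal TPM. Promoter windows are RefSeq's on GRCm38.p6, matched by symbol for 42 of 59 members. Protein sequences were not used here.

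The members, gene lists and rules were chosen with earlier results of these data known. Named with values were members of at least 10 TPM, the highest of each family, the 5 with the largest SD, the 5 with the largest difference between tables, the 5 with the lowest coding share, and the 3 highest and the lowest of each list. Members under 0.1 TPM in both tables were only named. Of the listed genes, 2 that the rule names are not reported here. Others were added after their values were seen, as parts of a family, pair or count. Alternatives covered the quantification, pseudocount, filters, scaling and leaving out each replicate. The share of counts in coding transcripts, the count lowest in replicate 2 by scale, and a stricter filter for the coefficient of variation were chosen after seeing the data.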

Additional observations from a re-analysis of the deposited data

How the results depend on the processing

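No paired analysis was possible because the series has 1 group. The number of members of at least 1 TPM, 21, stayed within 1.5 times of that under every alternative run (20 or 21 without 1 replicate, 30 in the read-based table). The median member, 0.11 on the log2(TPM + 1) scale, was -2.54 with a pseudocount of 0.1, 0.99 in the read-based table and 4.05 over detected members, with a range of 0.06 to 0.15 without 1 replicate. With a pseudocount of 0.1 the family medians were -2.56 for Slc1, 2.48 for Slc3, -3.32 for Slc6, 0.052 for Slc7 and 0.87 for Slc36. In the read-based table they were 0.67 for Slc1, 4.22 for Slc3, 0.30 for Slc6, 2.22 for Slc7, 2.22 for Slc36 and 4.21 for Slc43. Rescaled TPM gave 0.19 for Slc1, 4.05 for Slc3, 1.51 for Slc7, 2.41 for Slc36, 5.10 for Slc38 and 4.32 for Slc43, as every TPM is multiplied. Without 1 replicate the family medians ranged from 0.06 to 0.14 for Slc1, 3.44 to 3.54 for Slc3, 0.85 to 1.25 for Slc7, 1.84 to 1.93 for Slc36, 4.04 to 4.49 for Slc38 and 3.34 to 3.73 for Slc43, and stayed at 0 for Slc6. The median deviation of replicate 2 was -0.025 in the read-based table and 0 with no filter, where most members are near 0 TPM. That of replicate 1 was 0 with no filter, and that of replicate 3 turned to -0.019 with rescaled TPM and -0.018 in the read-based table. The median coding share was 48.8% in the read-based table and 73.5% of expected counts, and 52.5 to 56.0% without 1 replicate. Where no construction is named, the cause was not tested. Of the alternatives for the mean TPM of named members and 2 added results, 31 moved by more than the spread and 64 did not, and leaving out a replicate kept each mean within 1.5 times. Slc7a5 is the least certain of the named members, with 21 to 72 counts per library, and was under 1 TPM without replicate 1 (0.975) and without replicate 3 (0.86).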
